A study of Komagataella phaffii GS115 with 6 samples.

Results

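MRC1 (PAS_chr1-1_0329) and psm1 (PAS_chr2-1_0082) are the genes described here, 2 of the 115 in the table analysed. They were chosen by identifier, as the genes of the table with annotated roles in the replication checkpoint and in sister chromatid cohesion, and the choice was made with their difference between the media known. The cells were Komagataella phaffii (Pichia pastoris) strain GS115, a methylotrophic yeast whose genotype is labelled WT, harvested at 48 h. The BMMY group (3 libraries) grew in buffered complex medium with methanol as the carbon source, and the maltose group (3 libraries) grew in the same medium with 1% maltose. Both groups thus had methanol medium, and the title of the study names maltose as a factor in making recombinant type III collagen. The labels name no collagen construct in these cells and do not give the number of cultures behind the libraries, so the spread between them may be technical.

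The names come from the Swiss-Prot matches in the deposited table and rest on similarity to other yeasts. In Saccharomyces cerevisiae, Mrc1 (mediator of the replication checkpoint, the counterpart of animal Claspin) travels with the replication fork, helps it to move at normal speed, and passes the signal of a stalled fork from the kinase Mec1 to the kinase Rad53. In Schizosaccharomyces pombe, psm1 encodes the Smc1 subunit of cohesin, the ring-shaped complex that holds sister chromatids together from S phase until they separate at anaphase. Smc1 pairs with Smc3 through its hinge and binds ATP through its head domains. The deposited domain annotation gives an MRC1-like domain for MRC1, and an SMC N-terminal domain and an SMC flexible hinge domain for psm1. For MRC1 the deposited functional class is "function unknown" and the deposited protein description is a hypothetical protein, while psm1 is described as a cohesin subunit and classed under cell cycle control and chromosome partitioning. Both are long genes, with models of 3177 bases for MRC1 and 3678 bases for psm1.

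Counts over the listed genes ran from 3655044 to 8244143 per library, and depth, worked out from the counts and the FPKM values (fragments per kilobase of gene, scaled to library size), was 35.29 to 76.09 M fragments. All 115 genes had been selected by the authors as changed between the same 6 libraries, with a log2 fold change of 1 or more in size. A difference between the media in any listed gene therefore follows from the selection, and it is given for MRC1 and psm1 as a description. Where they are said to be called, this places them in the fit over all tested genes and is no evidence of a difference. In bulk RNA, fewer cells expressing a gene (for example fewer cells in S phase) and less RNA of it per cell cannot be told apart.

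MRC1 was a weakly expressed transcript and was lower with maltose. Its level was 3.28, 3.6 and 3.17 FPKM in BMMY replicates 1, 2 and 3, from 554, 870 and 539 counts. With maltose it was 1.05, 1.30 and 1.32 FPKM in replicates 1, 2 and 3, from 184, 189 and 149 counts. The BMMY libraries lay close together, with the highest 1.14 times the lowest, and all were above every maltose library. The lowest BMMY value was 2.39 times the highest maltose value. The means were 3.35 ± 0.22 FPKM in BMMY and 1.22 ± 0.15 FPKM with maltose (SD, n = 3 each), which is 2.74-fold lower with maltose. In edgeR's fit over all tested genes the log2 fold change of MRC1 was -1.45 (SE 0.18).

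psm1 was expressed more strongly and was also lower with maltose, but its BMMY libraries were far more spread. Its level was 10.3, 19.9 and 16.6 FPKM in BMMY replicates 1, 2 and 3, from 2018, 5576 and 3274 counts. With maltose it was 6.26, 6.41 and 4.80 FPKM in replicates 1, 2 and 3, from 1273, 1075 and 624 counts. The groups did not overlap, but BMMY replicate 1 stood nearest to the maltose libraries, at 1.61 times the highest of them. The highest BMMY library held 1.93 times the level of the lowest. The means were 15.6 ± 4.88 FPKM in BMMY and 5.82 ± 0.89 FPKM with maltose (SD, n = 3 each), a 2.68-fold lower level. The fitted log2 fold change of psm1 was -1.42 (SE 0.27).

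**Figure D1:**
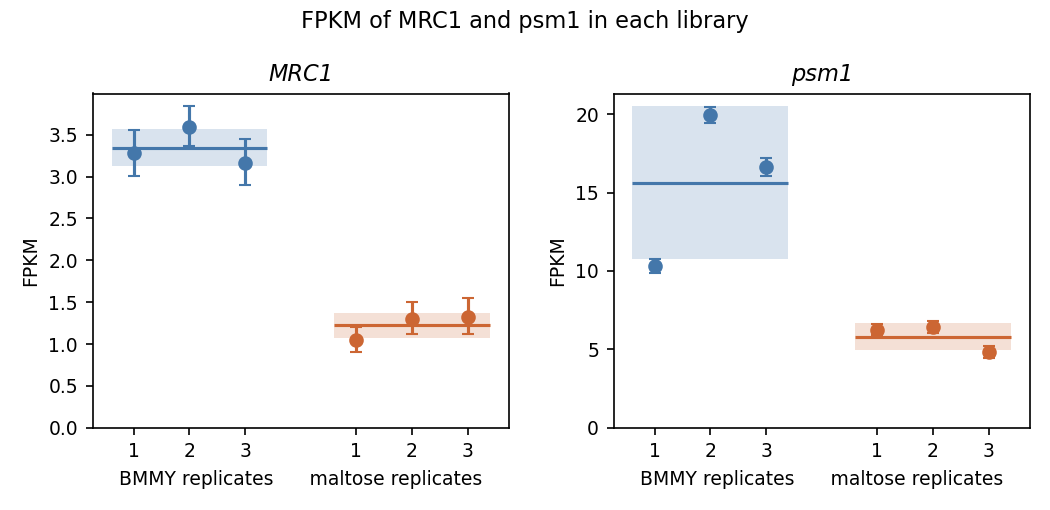
FPKM of MRC1 (left) and psm1 (right) in each of the 6 libraries, with separate linear axes that start at 0. Points are libraries, bars on them are exact Poisson 95% intervals of the counts, lines are group means and shaded bands are 1 SD; MRC1 spans 3.17 to 3.6 FPKM in BMMY, while psm1 in BMMY replicate 1 (10.3 FPKM) sits below the other BMMY libraries.

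The observed spread of both genes was above their counting error, by less in MRC1 than in psm1. Each SD rests on only 3 libraries, and the excess of MRC1 over counting error was not tested. In BMMY the coefficient of variation (SD divided by the mean) of MRC1 was 6.71%, where counting alone gives 4.0%, and with maltose it was 12.6%, where counting gives 7.62%. For psm1 it was 31.2% in BMMY against 1.81% from counting, and 15.2% with maltose against 3.33%. The exact Poisson 95% interval of psm1 in BMMY replicate 1 was 9.87 to 10.8 FPKM, and in BMMY replicate 2 it was 19.4 to 20.5 FPKM, so these libraries differed by more than counting error. The lowest count of MRC1, 149 in maltose replicate 3, gives an interval of 1.12 to 1.55 FPKM, which overlaps the interval of 0.90 to 1.21 FPKM in maltose replicate 1. Such an overlap does not show that the libraries were equal, and the order of the maltose libraries in MRC1 was not tested. These intervals cover counting error only. Among the 59 listed genes that were lower with maltose, the BMMY variation of psm1 was the 13th largest and that of MRC1 the 51st, and the median was 15.8%. With maltose they were near the middle, psm1 the 29th and MRC1 the 34th, and the median was 14.5%.

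The libraries that set the extremes differed between the genes. In MRC1, maltose replicate 3 held the highest maltose value, as it did in 41 of the 59 lower genes. In psm1, maltose replicate 3 held the lowest maltose value, which was so in 10 of the 59. BMMY replicate 1 was the lowest BMMY library in psm1, as in 26 of the 59 lower genes, and was between the others in MRC1. BMMY replicate 2 was the highest BMMY library in both MRC1 and psm1, as in 12 of the 59. Without BMMY replicate 1, the fold change of psm1 was 3.14 from means of 18.3 and 5.82 FPKM, and that of MRC1 was 2.77.

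The ratio of the genes within a library does not depend on any scaling between libraries. The level of psm1 was 3.15, 5.54 and 5.26 times that of MRC1 in BMMY replicates 1, 2 and 3, in FPKM. With maltose it was 5.98, 4.92 and 3.63 times that of MRC1 in replicates 1, 2 and 3. The ranges of the media overlapped. The mean ratio was 4.65 ± 1.31 in BMMY and 4.85 ± 1.18 with maltose (SD, n = 3 each), a difference smaller than either SD. On the log2 scale, with 0.1 FPKM added, the ratio of MRC1 to psm1 was -2.14 ± 0.45 in BMMY and -2.16 ± 0.35 with maltose, so the difference between the media was -0.02. Leaving out each library in turn gave differences from -0.20 to 0.24, the latter without BMMY replicate 1. These spreads are wide, so the data do not show that the genes were lowered equally.

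**Figure D2:**
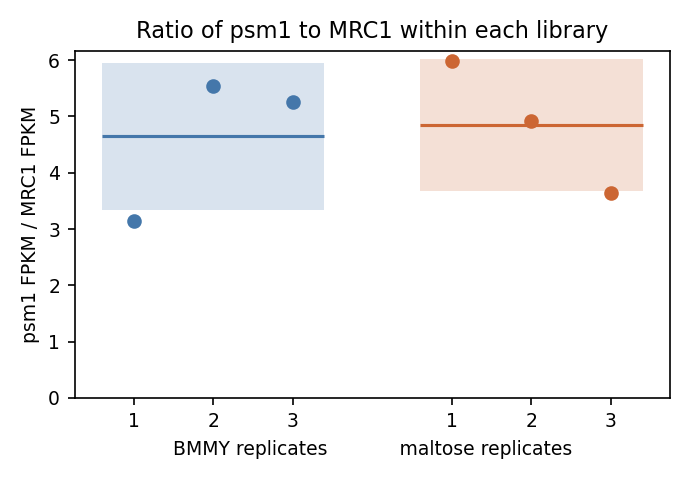
Ratio of psm1 FPKM to MRC1 FPKM within each library, on a linear axis that starts at 0. Points are libraries, lines are group means (4.65 in BMMY, 4.85 with maltose) and shaded bands are 1 SD; the media overlap, and the lowest ratios are in BMMY replicate 1 (3.15) and maltose replicate 3 (3.63).

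MRC1 and psm1 had small falls among the listed genes that were lower with maltose, and MRC1 also had a low level among them. In edgeR's quasi-likelihood test with Benjamini-Hochberg adjustment, 50.0% of the 112 tested genes were called lower with maltose, and both MRC1 and psm1 were among these 56. In 51.3% of the 115 listed genes every maltose library was below every BMMY library, and both were among these 59 too. All genes of the table that were lower met that description, so neither count tells anything of MRC1 and psm1. The median log2 fold change of the 56 lower genes tested was -1.64, with a range from -4.04 to -1.34, and the median over all 112 genes was -0.35. By the ratio of mean FPKM values, the fall of MRC1 was the 45th largest of the 59 and that of psm1 the 52nd. By the gap between the lowest BMMY and the highest maltose library, MRC1 was the 25th of the 59 and psm1 the 53rd, where the median gap was 2.27-fold. In mean FPKM over the 6 libraries, which is a level per length, MRC1 (2.29) was the 10th lowest of the 115 genes and psm1 (10.7) the 34th lowest, while the median listed gene had 68.5. Among the 59 lower genes, whose median was 13.1, MRC1 was the 10th lowest and psm1 the 29th, near the middle.

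**Figure D3:**
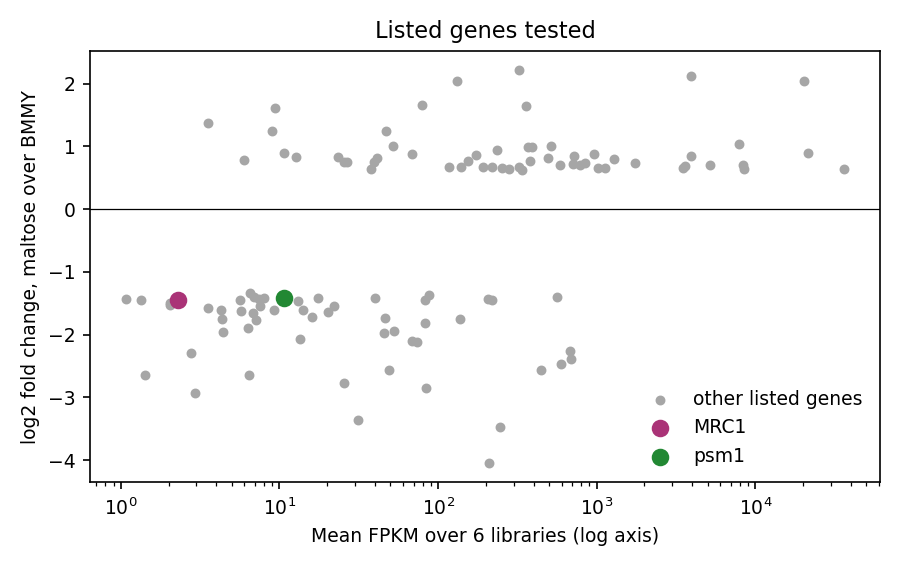
Fitted log2 fold change (maltose over BMMY) against mean FPKM over the 6 libraries (log axis) for the 112 tested genes, each point a gene. MRC1 (-1.45) and psm1 (-1.42) lie among the smaller falls of the lower genes, MRC1 at a low level for these genes (2.29 FPKM) and psm1 near their middle (10.7 FPKM). The empty band from -1.34 to 0.63 follows from the authors' selection. It is not centred on 0, and the authors' scaling shifts the median gene by 0.36.

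Both genes were near the limit of the authors' selection. In the authors' deposited table the log2 fold change was -1.09 for MRC1 and -1.05 for psm1, against a limit of 1 in size. In the authors' deposited table, 16 of the 59 lower genes had a smaller fall than MRC1 and 8 had a smaller fall than psm1. The size of the fall moved with the scaling between libraries, since other scalings shift all genes. It was -1.09 for MRC1 and -1.05 for psm1 with the scaling recovered from the authors' fold changes, which shifts the median gene by 0.36. When FPKM sums of the listed genes were made equal (shift -0.86), the log2 fold changes were -2.33 for MRC1 and -2.34 for psm1. With equal medians (shift 0.84, added after the data were examined), they were -0.62 for MRC1, still called lower, and -0.61 for psm1, no longer called. Both stayed negative in all settings tried.

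**Figure D4:**
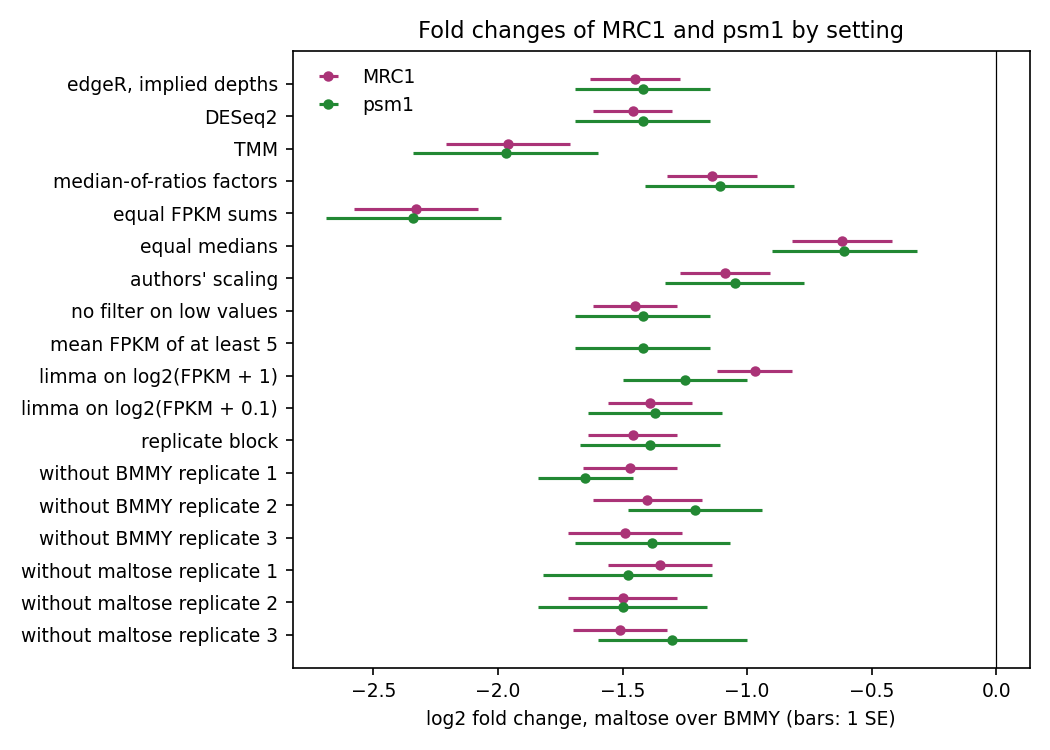
Log2 fold changes of MRC1 and psm1 (maltose over BMMY, bars are 1 SE) under each test, scaling, filter and left-out library. All points lie below 0, from -2.34 with equal FPKM sums to -0.61 with equal medians, and the genes stay close to each other under each scaling between libraries; MRC1 has no point at a mean FPKM of at least 5, which it does not reach.

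Few other genes of DNA replication or the cell cycle were found in the table by symbol or annotation words. Some listed genes have no symbol, so the search by name could not find them. The name lists are not complete, so a gene outside them and without the annotation words was not counted either. Of 30 names searched for the replication checkpoint and fork protection, MRC1 was the 1 found, and its fork partners Tof1 and Csm3 and the kinases Mec1 and Rad53 were not among the symbols of the 115 genes. Of 25 names for cohesin and its regulators, psm1 was the 1 found, so the table has no symbol for the other ring subunits Smc3 and Scc1 or the loader Scc2. No symbol matched the 54 names for the replication machinery, the 14 for condensin and the Smc5/6 complex, the 29 for cell cycle regulators or the 10 for histones. The rest of the genome was not analysed here, so these counts do not say whether such genes differed between the media. A search of the annotation text for words of replication, cohesion, checkpoint, cell cycle and DNA repair found 4 genes, MRC1, psm1 and 2 others. Of those 2 others, 1 was called lower and 1 higher, in a list where 50.0% of genes were called lower and 43.8% higher. That split of 56 lower and 49 higher became 56 and 13 with TMM, 56 and 7 with equal FPKM sums, and 48 and 56 with equal medians.

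The lower of these was imp2 (PAS_chr2-2_0259), named for an S. pombe protein of the contractile ring that acts in septation. Its level was 10.7, 9.55 and 9.80 FPKM in BMMY replicates 1, 2 and 3, and 3.70, 3.34 and 4.39 FPKM in maltose replicates 1, 2 and 3. The groups did not overlap, and imp2 was 2.63-fold lower with maltose (log2 fold change -1.39, SE 0.18, edgeR adjusted p = 2.04e-04, in a list selected on these libraries). The higher was FPS1 (PAS_chr1-4_0314), farnesyl pyrophosphate synthase of the isoprenoid pathway, whose annotation only mentions the cell cycle and which is no gene of chromosome replication. Its mean was 281 ± 90.5 FPKM in BMMY and 478 ± 19.3 FPKM with maltose (SD, n = 3 each), a log2 fold change of 0.77 that turned to -0.06 with equal FPKM sums. The call of FPS1 was lost with TMM (0.32) and when BMMY replicate 2 (0.66), replicate 3 (0.62) or the first maltose library (0.75) was left out.

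The genes whose pattern over the 6 libraries was most like that of MRC1 matched none of the names or annotation words searched above. Likeness was measured as the root mean square difference between log2(FPKM + 0.1) values centred on each gene's mean. The nearest was YGL159W (PAS_chr2-1_0703), an uncharacterized protein with an ornithine cyclodeaminase family domain in the deposited annotation, at a difference of 0.09. It had 132, 132 and 112 FPKM in BMMY replicates 1, 2 and 3 and 45.9, 48.3 and 52.0 FPKM with maltose, without overlap, and its lowest BMMY library was replicate 3, as in MRC1. PAS_chr1-3_0051, with a fungal zinc cluster domain in the deposited annotation, followed at 0.13, with 299 ± 2.11 FPKM in BMMY and 111 ± 3.0 with maltose. ARG81 (PAS_chr3_0490), in S. cerevisiae a regulator of arginine metabolism, was the third at 0.15, with 8.71 ± 0.97 and 2.81 ± 0.18 FPKM. The median difference between MRC1 and the other lower genes was 0.31.

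The genes most like psm1 were less close to it, and all shared a low value in BMMY replicate 1. PAS_chr2-1_0289, a hypothetical protein, differed by 0.19 and had 68.2, 139 and 159 FPKM in BMMY replicates 1, 2 and 3 and 47.0, 44.4 and 42.0 FPKM with maltose. YLL032C (PAS_chr1-4_0389), with a KH domain, differed by 0.21 and had means of 11.6 ± 1.23 and 4.34 ± 0.51 FPKM. LAS17 (PAS_chr1-4_0623), in S. cerevisiae the activator of Arp2/3-driven actin assembly at cortical patches, differed by 0.22 and had 1.43, 2.23 and 2.21 FPKM in BMMY replicates 1, 2 and 3 and 0.72, 0.63 and 0.78 FPKM with maltose. MRC1 and psm1 were not each other's nearest. They differed by 0.33, which placed psm1 32nd among the genes most like MRC1 and MRC1 14th among those most like psm1. The median difference from the other lower genes was 0.31 for MRC1 and 0.47 for psm1. All these genes come from a list selected for a difference between the media, so a shared step between the media is common to them, and the order rests on the size of that step and on the values within each medium.

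**Figure D5:**
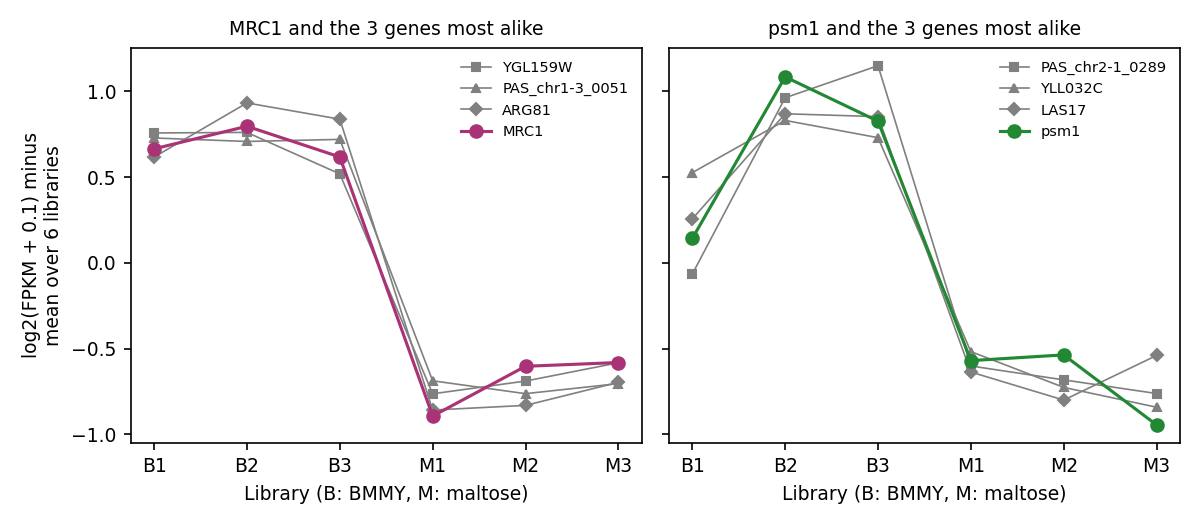
Log2(FPKM + 0.1) minus the gene's mean over the 6 libraries (vertical axis), by library (B1 to B3, BMMY; M1 to M3, maltose), for MRC1 and the 3 genes most like it (left) and for psm1 and the 3 genes most like it (right). Lines only join the points of a gene. The genes beside psm1 all have their lowest BMMY value in B1. Those beside MRC1 have root mean square differences of 0.09 to 0.15 from it.

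In the order of fitted log2 fold changes, the neighbours of MRC1 and psm1 differed from them by far less than 1 SE. Just beyond MRC1 were LAS17 (-1.45) and a gene matched to the human transcription factor TFAP4 (PAS_chr1-1_0122, -1.45). Just short of it were SFC1 (PAS_chr4_0688, -1.45), in S. cerevisiae the mitochondrial succinate-fumarate carrier, and PAS_chr1-3_0051 (-1.44). SFC1 had 322 ± 149 FPKM in BMMY, from 161 in replicate 1 to 456 in replicate 3, so it reached the same fold change as MRC1 with a much wider spread. Just beyond psm1 were EMP65 (PAS_chr4_0452, -1.43), a protein of the endoplasmic reticulum membrane, and PAS_chr1-1_0162 (-1.44), a hypothetical protein. Just short of psm1 were PAS_chr2-2_0117 (-1.42), a hypothetical protein, and MUP1 (PAS_chr2-1_0351, -1.41), the high-affinity methionine permease.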

How the data were processed

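Libraries were grouped by their titles, 3 per medium. The submitters' processing notes name CASAVA, HISAT2 2.2.1 and StringTie without roles. Genome build, annotation and strand setting are not given in the sources, so coordinates are left out. The deposited table holds raw counts and FPKM by library, per the file headers, the latter scaled by the authors for gene length and depth. Its log2 fold change column, made by the authors, is positive where maltose was higher. The deposited p-value column, from a test the sources do not give, was not used.

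Gene lengths and gene order came from RefSeq (ASM2700v1, 5040 genes, 115 of 115 identifiers matched). Depth per library was the median of count / (FPKM x length). edgeR 4.0.16 (R 4.3.3) was run as a quasi-likelihood test with these depths as library sizes, group as the only term and no TMM factors. A mean FPKM of 1 or more was required (112 of 115 genes, MRC1 and psm1 included). P-values were two-sided and adjusted by Benjamini-Hochberg, with a threshold of 0.05, and the SE was the log2 fold change over the square root of F. The procedure was tested on simulated counts that included unchanged genes, with the depths taken as known. That test gave every gene the same variation beyond counting error, below that of psm1 in BMMY. It does not cover the selection of the list or the choice of scaling. Alternatives used DESeq2 1.42.0, limma 3.58.1 on log2(FPKM + 1) or log2(FPKM + 0.1), other scalings and filters, a replicate block and left-out libraries. The authors' scaling was recovered as 6 factors that turn counts into their fold changes (largest difference 0.0092 on the log2 scale over 105 genes).

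MRC1, psm1 and the gene lists were chosen with earlier results of these data known. The genes named are MRC1, psm1, matches to the lists or annotation words, the 3 genes most alike in pattern and the 2 on either side in fold order.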

Additional observations from a re-analysis of the deposited data

How the results depend on the processing

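MRC1 and psm1 come from a list selected on these libraries and were chosen with their difference known, so calls that recur here are no sign of stability. MRC1 was called lower in each of the 16 alternatives that gave it a value, with log2 fold changes from -2.33 to -0.62, and with each library left out from -1.51 to -1.35. A mean FPKM of at least 5 leaves MRC1 out. psm1 was called lower in 16 of 17 alternatives. With equal medians, added after the data were examined, the median gene shifted by 0.84. In that setting psm1 was at -0.61 and not past the threshold (adjusted p = 0.071 in edgeR). With each library left out psm1 ran from -1.65 to -1.21. The count of genes called higher, 49 as reported, depended on scaling and on the libraries kept. It was 13 with TMM, 7 with equal FPKM sums and 56 with the authors' scaling. It was 29 without BMMY replicate 2 (29 to 56 over left-out libraries). Genes called lower numbered 48 to 56 of 112 under the scalings. With other filters more or fewer genes were tested. Genes called lower were then 43 of 98 at a mean FPKM of at least 5 and 59 of 115 with no filter. TMM and median-of-ratios factors shifted the median gene by -0.49 and 0.32. In log2(FPKM + 1), MRC1 was at -0.97, since the added value weighs on low levels. The difference between the media in the log2 ratio of MRC1 to psm1 was -0.07 from counts per length and 0.28 with 1 FPKM added, within the spread between replicates. With equal FPKM sums FPS1 turned to -0.06, and imp2, from the same selected list, was called lower in all alternatives.

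Replicate numbers are shared between the media, and the labels do not say whether they pair the libraries. Same-numbered libraries had correlations of deviations of -0.16, -0.02 and 0.03 over 112 genes, and differently numbered ones had -0.15 to 0.24. With so few libraries, these values cannot decide whether same-numbered libraries were handled together. With the replicate block, MRC1 was at -1.46 and psm1 at -1.39, and 56 genes were lower and 49 higher, as without it. At 149 to 189 counts per maltose library, depth limits MRC1 more than psm1.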

Other observations

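The gene next to MRC1 in the gene order of assembly ASM2700v1, PAS_chr1-1_0328, was also in the table, and was named after its values were seen. The deposited annotation gives it a domain of vacuole-related protein 17, which in S. cerevisiae links vacuoles to the myosin that carries them into the bud. Its level was 6.84, 5.48 and 6.93 FPKM in BMMY replicates 1, 2 and 3, and 1.74, 1.85 and 2.76 FPKM in maltose replicates 1, 2 and 3, without overlap. It was 3.04-fold lower with maltose (log2 fold change -1.60, SE 0.23). Its BMMY replicate 2 was its lowest BMMY library, where that of MRC1 was the highest, and it was 19th among the genes most like MRC1. The annotated spans of these neighbours do not overlap in that assembly. Of the 115 listed genes, 22 (19.1%) stood next to another listed gene, so such a pair is not rare in the table. The nearest listed gene to psm1 was GPR1 (PAS_chr2-1_0078), 4 genes away, which was below the filter on low values and not tested.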
